A study of Mus musculus with 10 samples.

Results

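MHC class II positive phagocytes of the mouse retina and optic nerve were taken as the cells with at least 1 UMI (unique molecular identifier, a count of captured RNA molecules) of H2-Aa, H2-Ab1, Cd74 and C1qa and with 0 UMIs of Mrc1, Cd3d and Cd3e. This rule found 188 of the 1168 cells of the series, 16.1%, and 20.3% of the 925 cells with C1qa and with Mrc1, Cd3d and Cd3e at 0, called C1qa cells here. They were set against 597 comparison cells with C1qa above 0 and H2-Aa and H2-Ab1 at 0. Another 174 C1qa cells were in neither class. The cells were chosen by their measured UMIs of these genes, so that the levels of H2-Aa, H2-Ab1, Cd74, C1qa, Mrc1, Cd3d and Cd3e are given as a description with no test.

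Class II molecules are pairs of an alpha and a beta chain that carry peptides from the endosomal pathway to the surface of antigen-presenting cells, where CD4+ T cells read them. The alpha and beta chains of both mouse isotypes are encoded by H2-Aa with H2-Ab1 and by H2-Ea with H2-Eb1, and their chaperone, the invariant chain, by Cd74. In endosomes the protease cathepsin S (Ctss) trims the invariant chain, the H2-DM heterodimer (H2-DMa with H2-DMb1 or H2-DMb2) loads peptide, and the H2-O heterodimer (H2-Oa, H2-Ob) restrains H2-DM. The coactivator Ciita switches these genes on, through factors bound to an X box and a Y box in their promoters. Resting microglia, the parenchymal phagocytes of nervous tissue, carry little class II, whereas border macrophages and dendritic cells carry more.

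Mice of the 129S1/SvlmJ strain, with the genotype label Wildtype and of both sexes, were collected at 10 weeks of age, with P56 as the age in the labels. The 4 groups analysed were injured optic nerve and injured retina, collected 2 weeks after an optic nerve crush at 8 weeks, and uninjured optic nerve and uninjured retina. The labels call the cells microglia/macrophage of each tissue, captured with 10x Genomics droplets (v2 chemistry, which counts 3′ ends). Each group had 2 libraries that could be told apart, since the injured retina samples 1 to 4 appear as a pool of samples 1 and 2 and a pool of samples 3 and 4, with nothing to separate the animals within a library. P-values over libraries rest on the spread between these libraries, which may be technical. The limma fits moderate each gene's spread toward that of genes of like mean value. Their standard errors (± values) and p-values therefore do not measure a gene's own spread between libraries, which can be wider.

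Injured tissue gave 176 of the class II positive cells and uninjured tissue 12. Injured optic nerve libraries 1 and 3 held 19 and 77, uninjured optic nerve libraries 2 and 4 held 6 and 2, the injured retina pools held 57 and 23, and uninjured retina libraries 5 and 6 held 4 and 0. Over all libraries the median depth was 11316.5 UMIs in class II positive cells against 1643 UMIs in comparison cells, with the classes drawn unequally from the libraries. Within libraries the class II positive cells had the higher median in injured nerve 1 (1443 against 1022 UMIs) and 3 (11365 against 1487 UMIs), in uninjured nerve 4, in the retina pool of samples 3 and 4 (7373 against 3986 UMIs) and in uninjured retina 5. They had the lower median in uninjured nerve 2 (1536 against 2006.5 UMIs) and in the retina pool of samples 1 and 2 (13885 against 14566.5 UMIs). Gene comparisons were made on cells thinned to 1000 UMIs, which does not undo the selection itself. No class II positive cell shared a barcode with another cell, whereas 4 comparison cells did.

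A pair of class II promoters is shown first because their genes, H2-Eb1 and H2-DMb1, are the class II genes outside the rule whose levels the results turn on, and that of H2-Aa, a gene of the rule, stands beside them. The sequences are RefSeq promoters of build GRCm38.p6, from 250 bases before to 50 bases after the start of the gene, 5′ to 3′ on the gene's strand: H2-Aa at chr17:34287774-34288073 on the minus strand, H2-Eb1 at chr17:34305617-34305916 on the plus strand and H2-DMb1 at chr17:34152941-34153240 on the plus strand. Capitals mark the letters AACNGAT, searched for as the core of the X box, and TGATTGG, searched for as the Y box, both on either strand and without overlap between them here.
H2-Eb1: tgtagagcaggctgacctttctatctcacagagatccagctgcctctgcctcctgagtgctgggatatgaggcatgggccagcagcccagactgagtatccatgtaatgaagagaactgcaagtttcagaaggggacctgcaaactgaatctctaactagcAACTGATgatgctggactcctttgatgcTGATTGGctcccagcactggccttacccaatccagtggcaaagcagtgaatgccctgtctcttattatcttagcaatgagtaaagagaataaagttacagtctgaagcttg
H2-DMb1: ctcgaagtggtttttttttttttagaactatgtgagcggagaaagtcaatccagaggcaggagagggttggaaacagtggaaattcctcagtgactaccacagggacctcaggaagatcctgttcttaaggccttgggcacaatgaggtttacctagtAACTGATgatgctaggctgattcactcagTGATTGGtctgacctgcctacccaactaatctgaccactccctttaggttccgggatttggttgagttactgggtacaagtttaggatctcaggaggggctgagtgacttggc
H2-Aa: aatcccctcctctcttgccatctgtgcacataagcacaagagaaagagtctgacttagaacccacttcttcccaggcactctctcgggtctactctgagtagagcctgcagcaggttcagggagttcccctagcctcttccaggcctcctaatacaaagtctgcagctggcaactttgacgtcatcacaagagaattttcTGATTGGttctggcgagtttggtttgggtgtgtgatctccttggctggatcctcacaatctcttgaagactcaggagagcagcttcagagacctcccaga
H2-Eb1 held the X box letters 89 bases and the Y box letters 61 bases before its start, and H2-DMb1 held them 92 and 63 bases before its start. H2-Aa held only the Y box letters, 50 bases before the start. Of 32817 promoters of this length, 6.93% held the X box letters, 7.80% the Y box letters and 0.539% (177 promoters) both. Of 8 class II genes looked up, 6 matched an entry (H2-Aa, H2-Eb1, H2-DMa, H2-DMb1, H2-Oa and H2-Ob), the others being H2-Ab1 and Ciita. H2-Oa held the Y box letters 45 bases and H2-Ob 59 bases before the start, and the windows of H2-DMa held neither set of letters.

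The 3 genes of the rule made up a small part of each cell's RNA. In injured optic nerve, H2-Aa, H2-Ab1 and Cd74 together took a median of 1.47% of a class II positive cell's UMIs in library 1 and 0.644% in library 3. In uninjured optic nerve the medians were 2.90% in library 2 and 2.34% in library 4. In retina they were 1.21% and 1.93% in the injured pools of samples 1 and 2 and of samples 3 and 4, and 3.37% in uninjured library 5. The median was lowest in injured nerve library 3, and single cells there reached from 0.0150% to 7.52%. As CPM (a gene's summed UMIs scaled to the total UMIs of the class in a library), Cd74 was at 9758 and 6131 in the injured nerve libraries, 29911 and 21350.5 in the uninjured nerve libraries, 10530 and 13073 in the injured retina pools, and 25883 in uninjured retina library 5, so that the few cells from uninjured tissue had the higher levels in both tissues. A shallow cell needs a higher fraction of its UMIs in these genes to pass the rule. Median depth of these cells was 1443 and 11365 UMIs in injured nerve and 1536 and 5035 UMIs in uninjured nerve. It was 13885 and 7373 UMIs in the injured retina pools and 5975 UMIs in uninjured retina library 5. The part of depth in this order was not tested.

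Of 188 class II positive cells 185 had a UMI of at least 1 of 11 microglial markers, and the summed level of these markers was lowest in uninjured nerve library 2. It was 1409 CPM in class II positive cells against 6023 CPM in comparison cells of that library. In the class II positive cells of the other 6 libraries it was between 4192 and 6994 CPM. Uninjured nerve library 4 had 5859 CPM against 18585 CPM in comparison cells, and uninjured retina library 5 had 4192 against 13099 CPM. In injured nerve libraries 1 and 3 it was 6994 against 6403 CPM and 6064 against 6101 CPM. In the injured retina pools it was 4360 against 5895 CPM and 5363 against 5929 CPM. P2ry12, the purinergic receptor of homeostatic microglia, had a UMI in 50 of 57, 20 of 23 and 2 of 4 retina cells, in 7 of 19 and 23 of 77 injured nerve cells, and in 0 of 6 and 1 of 2 uninjured nerve cells. Depth differed between these libraries too, and the median was 13885 and 7373 UMIs in class II positive cells of the injured retina pools and 1443 and 11365 UMIs in those of the injured nerve. In uninjured nerve library 2, 13 monocyte markers summed to 3231 CPM in class II positive cells (39 UMIs, over 7 of the markers) and 864 CPM in comparison cells. S100a4 had 12 UMIs and Ccr2, the monocyte chemokine receptor, 4 UMIs in those 6 class II positive cells, against 2 and 0 UMIs in the 44 comparison cells. The values of these 6 cells go against the word parenchymal.

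Markers of other class II bearing cells differed in how far they were found. Of 12 border macrophage genes outside the rule 11 had a UMI, in 135 of the 188 cells, with Lyve1 at 0. They summed to 470 and 793 CPM in class II positive cells of injured nerve libraries 1 and 3, against 2002 and 1119 CPM in comparison cells, and to 3646 and 99.3 CPM in those of uninjured nerve libraries 2 and 4, against 6723 and 177 CPM. In the retina they summed to 122 and 165 CPM in class II positive cells of the injured pools, against 152 and 112 CPM in comparison cells, and to 1185 against 307 CPM in uninjured library 5, where the label parenchymal is thus also less sure for its 4 cells. Cells with Mrc1 were kept out of the class II positive cells and not out of the comparison cells, 32 of which had it. They were not spread evenly. Of the comparison cells in the limma fit, 18 of 36 in uninjured nerve library 2 had Mrc1, Cd3d and Cd3e at 0. In injured nerve libraries 1 and 3 these were 37 of 42 and 248 of 255. Lower border macrophage sums in class II positive cells can thus be set in part by the rule. Of 12 B cell genes 3 had any UMI, in 57 of the 188 cells, and Cd79a and Ms4a1 were at 0. Of 15 T and NK cell genes outside the rule 2 had a UMI, in 2 cells. Of 16 conventional dendritic cell genes 10 had a UMI, in 128 cells, with Xcr1, Clec9a and Cd209a at 0. The list summed to 301 and 352 CPM in class II positive cells of injured nerve libraries 1 and 3, against 296 and 245 CPM in comparison cells. In uninjured nerve libraries 2 and 4 it summed to 497 CPM in each, on 6 and 5 UMIs, against 190 and 142 CPM. In the injured retina pools it summed to 187 and 115 CPM against 160 and 28.0 CPM. It was lower in class II positive cells only in uninjured retina library 5, at 45.6 against 272 CPM. Of 13 monocyte genes 9 had a UMI, in 151 cells, with Ly6c2 and Vcan at 0. In class II positive cells of injured nerve libraries 1 and 3 they summed to 226 and 1317 CPM, against 578 and 1343 CPM in comparison cells. In the injured retina pools they summed to 655 and 656 CPM against 745 and 923 CPM. They summed to 298 against 142 CPM in uninjured nerve library 4, on 3 and 4 UMIs, and to 729 against 298 CPM in uninjured retina library 5. Oligodendrocyte genes were found in all nerve libraries. Of the 188 class II positive cells 142 had a UMI of at least 1 of these genes, and 97 had 2 or more of them. The 12 of them summed to 555 to 5340 CPM in the class II positive cells of the nerve libraries against 1289 to 10880.2 CPM in comparison cells, and to 45.6 to 72.6 CPM in class II positive cells of the retina against 0 to 93.5 CPM in comparison cells. Their part in the results was not tested, apart from a fit without cells that held genes of other types. Of the nerve libraries that fit kept injured library 3 alone, with 14 of its 72 class II positive cells in the main fit. No doublet caller was run. Of the 188 class II positive cells 15 (7.98%) had a UMI of Rbpms, against 31 of 597 comparison cells (5.19%), with no matching on depth.

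The share of C1qa cells that were class II positive asks how common the state was in injured and in uninjured tissue. In the retina it was 67.1% (57 of 85 cells, 95% interval 56 to 76.9%) and 74.2% (23 of 31 cells, 55.4 to 88.1%) in the injured pools, against 12.9% (4 of 31 cells, 3.63 to 29.8%) in uninjured library 5 and 0 of 12 cells in uninjured library 6, which allows a share of up to 25%. In the optic nerve it was 15.2% (19 of 125 cells, 9.41 to 22.7%) and 13.1% (77 of 589 cells, 10.5 to 16.1%) in injured libraries 1 and 3, against 18.2% (6 of 33 cells, 6.98 to 35.5%) and 10.5% (2 of 19 cells, 1.3 to 33.1%) in uninjured libraries 2 and 4. The injured and uninjured retina libraries did not overlap, whereas the nerve libraries of both kinds did. Intervals are exact Clopper-Pearson intervals and, like the limit for 0 cells (3 counts), cover counting error only.

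Averaged over tissues, the share was 32.0 percentage points higher in injured than in uninjured libraries, which the exact two-sided permutation test within tissues did not separate from the other assignments (p = 0.222, 36 assignments, smallest possible p 0.0556). In the retina alone the difference was 64.2 points (exact permutation p = 0.333, the smallest that 6 assignments can give), and in the nerve alone -0.22 points (exact permutation p = 1). The difference of the retina and nerve differences was 64.4 points, also without passing (exact permutation p = 0.167). Depth differed between the libraries: the median depth of C1qa cells was 14067 and 6059 UMIs in the injured retina pools, 4250 and 4712 UMIs in uninjured retina, 1026 and 2142 UMIs in injured nerve, and 1478 and 1239 UMIs in uninjured nerve. With each cell thinned to 1000 UMIs, the shares were 41.5% and 51.8% in injured retina against 12.5% and 0% in uninjured retina, and 14.2% and 7.85% in injured nerve against 28.0% and 10.8% in uninjured nerve, so that the retina groups stayed apart. Thinning left out 60 and 167 shallower C1qa cells in injured nerve, 7 and 8 in uninjured nerve, 0 in injured retina, and 1 and 0 in uninjured retina. In uninjured retina 0 UMIs fell on gene entries after entry 27998 of 52181, so that injury and the annotation cannot be told apart there.

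**Figure D1:**
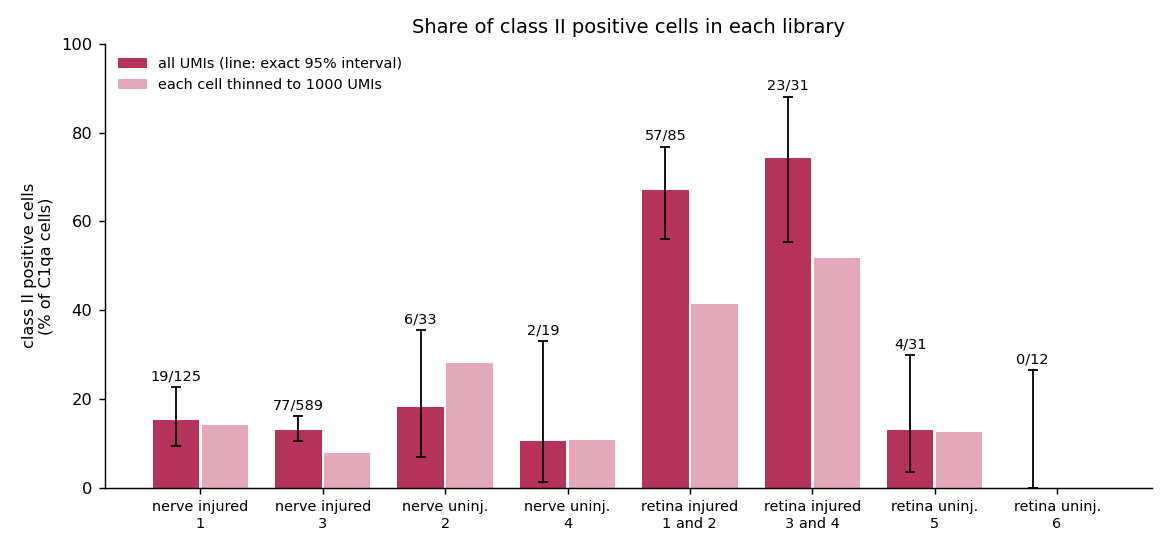
Class II positive cells as a percentage of C1qa cells in each library, with all UMIs (dark, exact 95% interval, cells above) and after thinning each cell to 1000 UMIs (light). The injured retina pools stand at 67.1% and 74.2%, above all other libraries, and at 41.5% and 51.8% after thinning.

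The share of cells of other types with all 3 class II genes was set beside that of C1qa cells of injured tissue. In injured retina, C1qa cells had a share of 67.1% and 74.2% at medians of 14067 and 6059 UMIs. Of 40 cells with Cd3d or Cd3e and without C1qa, all from injured retina, 0 had all 3 genes (a share of up to 8.81% by the exact interval), at medians of 4527 and 1918 UMIs in the pools. In injured nerve, C1qa cells had a share of 15.2% and 13.1% at medians of 1026 and 2142 UMIs. Of 43 cells with at least 5 oligodendrocyte genes and without C1qa, pooled over injured and uninjured tissue, 2 had all 3 genes (4.65%, 0.568 to 15.8%) at a median of 2016 UMIs. By library these were 0 of 5 cells in injured nerve 1, 1 of 17 in injured nerve 3 and 1 of 17 in uninjured nerve 2. The pooled interval holds both nerve shares. With 2 positive cells from mixed libraries it cannot say whether the share in injured nerve stood above this background.

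H2-Eb1, a class II beta chain that the rule did not use, checks the rule at its edge. It had a UMI in 164 of the 188 class II positive cells (87.2%) and in 16 of the 597 comparison cells (2.68%). Just inside the rule, 38 cells with 1 UMI in the lowest of the 3 genes had H2-Eb1 in 55.3% of cells, against 95.3% of the 150 cells with 2 or more UMIs in each. Just outside it, 128 C1qa cells with 2 of the 3 genes had H2-Eb1 in 21.9%, 224 cells with 1 of the 3 genes in 5.80% and 385 cells with none in 1.04%. Median depth differed along this order, at 6377 UMIs just inside, 5135 UMIs just outside and 1244 UMIs in cells with none.

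**Figure D2:**
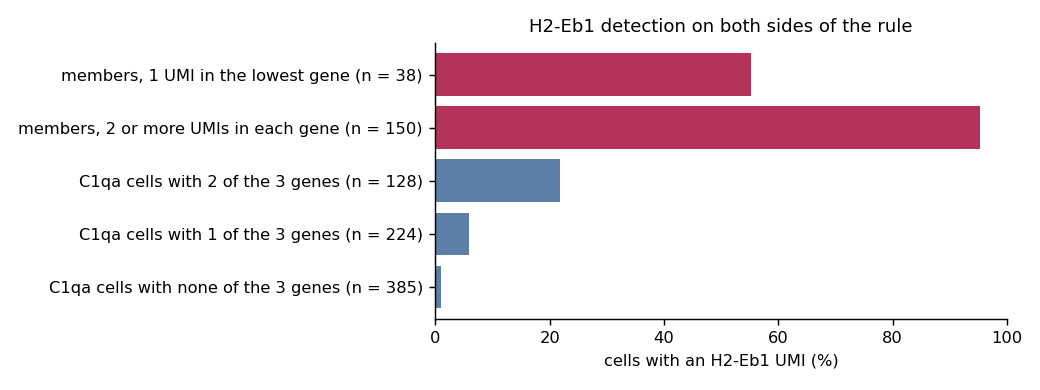
Percentage of cells with an H2-Eb1 UMI among class II positive cells (red) and other C1qa cells (blue), split by the UMIs of H2-Aa, H2-Ab1 and Cd74. H2-Eb1 was found in 55.3% of cells just inside the rule and in 21.9% just outside it.

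Class II positive cells were compared with comparison cells of the same library to ask which other genes go with the class II genes. limma was fitted to the 5 libraries in which each class had 5 or more cells (mean ln of 1 plus UMIs per 10000 per library and class, library as a block). It called 1 of 5528 genes at an adjusted p of 0.05, 0.0181% of the genes tested, and that gene was H2-Eb1. It was higher by 2.55 ± 0.25 in mean ln value (standard error, adjusted p = 4.0e-05) and higher in 5 of 5 libraries. 0 genes were lower. At an unadjusted p of 0.05, 303 genes passed (5.48% of those tested), 95 higher and 208 lower.

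The levels of H2-Eb1 (chr17:34305867-34316674, plus strand, GRCm38) left a wide gap between the classes. It stood at 2275 and 1738 CPM in class II positive cells of injured nerve libraries 1 and 3, against 28.9 and 4.97 CPM in comparison cells. In uninjured nerve libraries 2 and 4 it stood at 10606 and 6455 CPM in class II positive cells, against 13.1 and 0 CPM in comparison cells. In the injured retina pools it stood at 2280 and 4627 CPM in class II positive cells, against 4.21 and 0 CPM in comparison cells, and in uninjured retina library 5 at 7610 CPM against 0 CPM. In each library the class II positive cells had the higher level. Within each tissue the uninjured libraries again stood above the injured ones, and the part of depth and of the rule in that order was not tested. With no filter on low genes, where 11842 genes were tested, H2-Eb1 was not called (adjusted p = 0.775), while 17 of 18 alternatives called it.

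The genes that load class II had smaller differences. H2-DMa, the alpha chain of the peptide-loading dimer, had 244, 209, 1077, 302 and 340 CPM in class II positive cells of injured nerve 1, injured nerve 3, uninjured nerve 2 and the retina pools of samples 1 and 2 and of samples 3 and 4, against 101, 108, 131, 177 and 83.9 CPM in their comparison cells. H2-DMb1, its beta chain, had 376, 155, 249, 158 and 175 CPM in class II positive cells of the same libraries against 72.3, 69.6, 58.9, 84.2 and 83.9 CPM in comparison cells. Each was higher in class II positive cells in 5 of 5 libraries. By limma H2-DMa differed by 0.53 ± 0.16 and H2-DMb1 by 0.28 ± 0.07 in mean ln value, and neither passed (adjusted p = 0.764 for both).

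On UMIs summed per library and class both genes passed. edgeR called 12 of 3430 genes (0.35%), 6 higher and 6 lower, and gave H2-DMa a log2 fold change of 1.29 (adjusted p = 0.00471) and H2-DMb1 one of 1.35 (adjusted p = 0.00436) beside 8.34 for H2-Eb1 (adjusted p = 4.0e-23). DESeq2 called 4 of 3430 genes (0.117%), namely H2-Eb1, H2-DMa, H2-DMb1 and, as the lower gene, Tnf. Summed counts let deep cells weigh more, and they keep the difference in depth between the classes. In the fit without cells holding genes of other types, where 3 libraries remained, the limma difference of H2-DMa was 0.13 and that of H2-DMb1 0.19. Without uninjured nerve library 2 that of H2-DMa was 0.25.

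The other genes of the pathway lay closer to 0 or had few UMIs. H2-Oa, a chain of the inhibitor of H2-DM, had 56.4, 14.2, 82.9, 95.7 and 110 CPM in class II positive cells of the 5 libraries, in the order above, against 43.4, 4.14, 13.1, 46.3 and 0 CPM in comparison cells, higher in 5 of 5 libraries and on 1 to 83 UMIs. Its difference in mean ln value was 0.16 ± 0.06 (limma, adjusted p = 0.764). H2-Ob, its partner, differed by 0.05 ± 0.03 and Rfxap, a subunit of the X box factor, by 0.02 ± 0.03. Ctss, the invariant chain protease, was abundant in both classes, at 5922, 7526, 1491, 7673 and 9849 CPM in class II positive cells against 6013, 7121, 3208, 8265 and 9621 CPM in comparison cells, with a difference of 0.02 ± 0.17. Lgmn, an endosomal protease, differed by -0.30 ± 0.26. None of these passed in any direction by limma (adjusted p from 0.764 to 0.987).

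Ciita was too sparse for the test. Class II positive cells held 3, 10, 1, 4 and 2 Ciita UMIs in the 5 libraries, against 1 UMI in comparison cells of injured nerve library 1 and 0 UMIs in those of the other 4. The comparison cells of injured nerve library 3 summed to 2412826 UMIs with 0 Ciita UMIs, more than the 917483 UMIs of the class II positive cells that held 10. H2-DMb2 and Rfx5 also fell below the filter, with 0 to 6 UMIs in the class II positive cells of each library. Of the 15 genes of the class II list 8 were tested, with 7 differences above 0 and 1 below, 1 called, and a median of 0.11 against -0.02 over all genes.

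**Figure D3:**
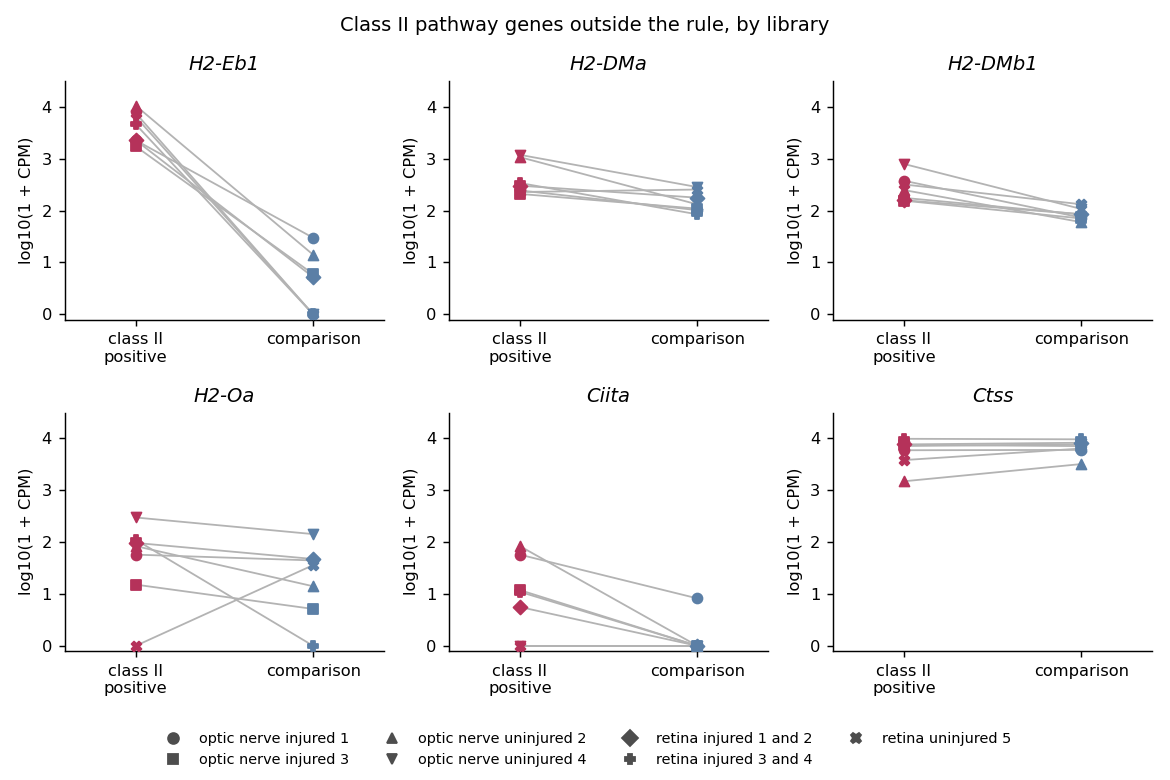
Levels of 6 class II pathway genes outside the rule, as log10 of 1 plus CPM, in class II positive cells (left, red) and comparison cells (right, blue) of 7 libraries, joined by library. H2-Eb1 separates the classes in each library, H2-DMb1 is higher on the left in each, and Ctss is about level except in uninjured nerve library 2 and uninjured retina library 5.

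Class I genes, which present peptides to CD8+ T cells, showed no called difference: 14 of the 19 tested were above 0, with a median of 0.05. H2-D1 differed by 0.50 ± 0.20 and H2-K1 by 0.37 ± 0.17, each higher in 5 of 5 libraries without passing (limma, adjusted p = 0.764 for both). B2m, the light chain, differed by 0.07 ± 0.20. Among 7 costimulation and checkpoint genes 0 were called and 2 were above 0 (median -0.02), with Cd86, a ligand of CD28, at -0.02 ± 0.08 and Cd274, the inhibitory ligand PD-L1, at 0.05 ± 0.03. Cd40 had 2 UMIs or fewer and Cd80 10 UMIs or fewer in the class II positive cells of each library.

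Interferon gamma is a known inducer of Ciita in macrophages. Of 22 interferon gamma response genes 10 passed the filters and were tested. Among these 0 were called and 4 were above 0, with a median of -0.02, the same as over all genes. The fit missed most changed genes in simulated data, so that 0 calls say little. A part of interferon gamma in the class II positive state was not tested. Irf1, a transcription factor of that response, differed by -0.04 ± 0.08 and the chemokine Cxcl10 by -0.07 ± 0.06. Of 8 type I interferon response genes 0 were called and 3 were above 0 (median -0.04), with the antiviral membrane protein Ifitm3 at 0.16 ± 0.07.

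The homeostatic microglia list leaned the other way, and without a called gene. Of its 18 genes tested 17 were below 0, with a median of -0.14 against -0.02 over all 5528 genes, of which 3589 were below 0. Siglech, a sialic acid binding receptor, differed by -0.29 ± 0.11 and was lower in 5 of 5 libraries, and P2ry12 differed by -0.26 ± 0.12 and was lower in 4 of 5. Both gaps were widest in uninjured nerve library 2, on 5 class II positive cells and 36 comparison cells. Of those comparison cells only 18 had Mrc1, Cd3d and Cd3e at 0. There Siglech was at 0 against 0.81 and P2ry12 at 0 against 0.97 in comparison cells. The next widest were in the retina pool of samples 1 and 2, at 0.64 against 0.96 and 0.50 against 0.84. Jun is in that list and also among the immediate early genes, of which 13 of 19 were below 0 (median -0.12, 0 called). Among 22 disease-associated microglia genes 12 were above 0 (median 0.01, 0 called). Axl, a receptor for dying cells, differed by 0.19 ± 0.07, while the proteases Ctsb and Ctsd differed by -0.54 ± 0.24 and -0.41 ± 0.20 and were lower in 5 of 5 libraries. The gaps of both proteases were also widest in uninjured nerve library 2, with Ctsb at 0.48 against 2.21 and Ctsd at 0.86 against 2.21.

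Tnf, which encodes an inflammatory cytokine, was lower in class II positive cells by count models. It stood at 18.8, 43.6, 0, 121 and 75.1 CPM in class II positive cells of the 5 libraries against 101, 207, 131, 383 and 364 CPM in comparison cells, lower in 5 of 5. Its log2 fold change was -1.94 by edgeR (adjusted p = 3.8e-06) and -2.03 by DESeq2 (adjusted p = 4.0e-06), while limma gave -0.21 ± 0.06 in mean ln value (adjusted p = 0.764). Cxcl1, a neutrophil chemokine, also fell by edgeR (log2 fold change -3.35, adjusted p = 1.3e-06), with 27 UMIs in class II positive cells against 781 UMIs in comparison cells of injured nerve library 3 and 0 against 102 UMIs in uninjured nerve library 2, but 2 against 0 UMIs in the retina pool of samples 1 and 2. The other genes edgeR called were Postn (1.58), Ccl5 (1.64) and Lag3 (1.1) as higher and Gpr84 (-1.16), Stab1 (-1.49), Tagap (-1.43) and its near-identical copy Tagap1 (-1.51) as lower, all without a call by DESeq2. Stab1 marks border macrophages, of which Mrc1-bearing cells were kept out of the class II positive cells and not out of the comparison cells, 32 of which had Mrc1.

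Ribosomal protein genes lay mostly above 0. Of 29 tested, 28 were above 0 in class II positive cells, with a median of 0.38 against -0.02 over all genes, and 0 were called. Rps29 differed by 0.39 ± 0.11 and Rpl23 by 0.59 ± 0.17, each higher in 5 of 5 libraries. Many have pseudogene copies that share reads. The remaining lists had 0 called genes and medians of -0.00 for complement and Fc receptors (6 of 13 above 0), -0.05 for lysosome and phagocytosis (6 of 19), -0.08 for chemokines and cytokines (5 of 12), -0.06 for heat shock (4 of 12) and -0.03 for proliferation (1 of 5). The 5 genes after H2-Eb1 with the smallest p were Fau, H2-DMb1, Rps29, Rpl23 and Tnf.

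**Figure D4:**
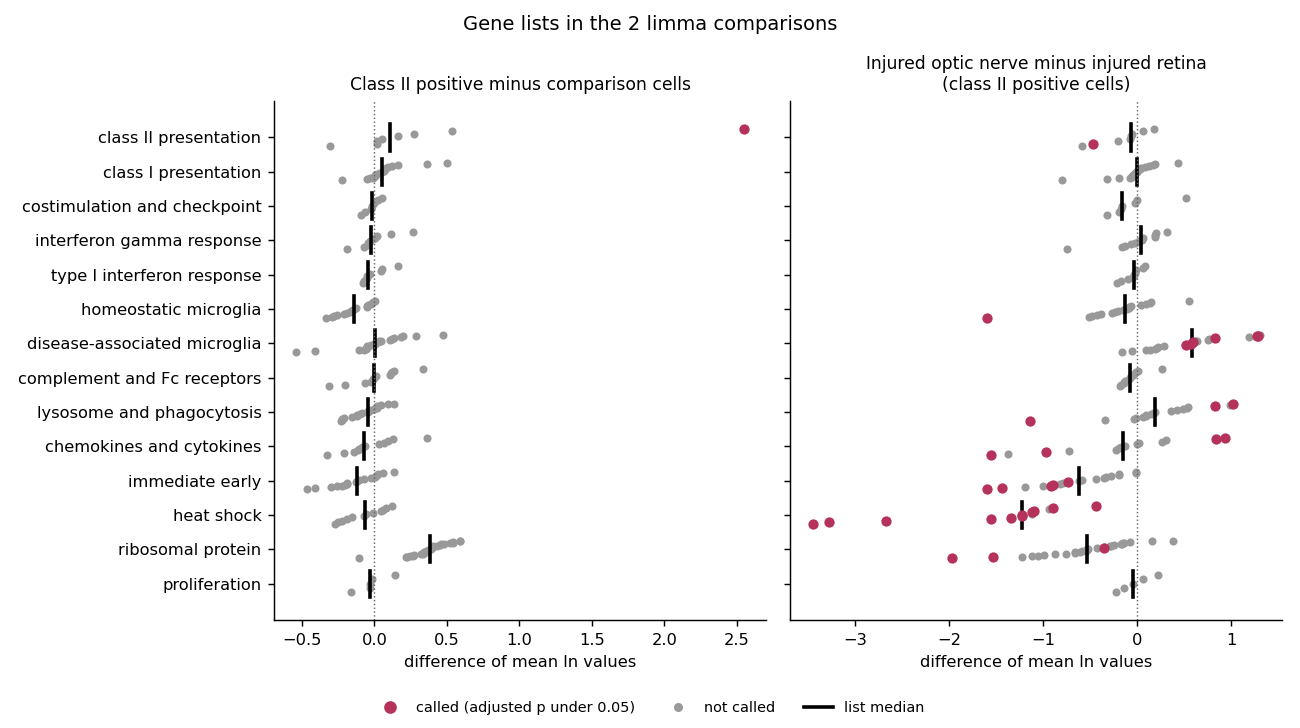
Differences in mean ln value of the genes of 14 lists, class II positive minus comparison cells (left, 5 libraries) and injured optic nerve minus injured retina among class II positive cells (right, 4 libraries), with called genes in red, others in grey and the list median as a black line. On the left only H2-Eb1 is called, and on the right 11 of 13 heat shock genes are called as lower in the nerve.

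The class II positive cells of the crushed optic nerve and of the retina whose axons had been crushed were then compared with each other. limma over the 4 injured libraries called 86 of 6336 genes (1.36%), 28 higher (0.442%) and 58 lower (0.915%) in the nerve. Tissue coincides here with the unit of the deposited values and possibly with the annotation: Ifi30, a thiol reductase of the class II pathway, had 0 UMIs in all nerve libraries and 281 and 47 UMIs in class II positive cells of the injured retina pools. Differences of single genes near 0 in one tissue can therefore not be told apart from counting. The balance of calls moved with the libraries and the depth. It was 3 higher and 22 lower without the retina pool of samples 1 and 2, and 2 higher and 21 lower without that of samples 3 and 4. It was 179 higher and 209 lower without nerve library 1, and 536 higher and 400 lower without nerve library 3, which turned the balance round. With all UMIs of each cell it was 34 higher and 298 lower.

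Heat shock genes were lower in the nerve as a group, 11 of 13 by the test and 0 higher, with a list median of -1.22 against -0.01 over all genes. Hspa1a, the inducible HSP70, averaged 0.00 and 0.16 in mean ln value in class II positive cells of injured nerve libraries 1 and 3, against 3.79 and 3.28 in the retina pools (difference -3.45 ± 0.36, adjusted p = 4.3e-08). Hspa1b, a near-identical copy that shares reads with it, differed by -3.27 ± 0.34, the chaperone Hsp90aa1 by -2.67 ± 0.36 and the co-chaperones Bag3, Hsph1 and Dnajb1 by -1.23 ± 0.18, -1.22 ± 0.17 and -1.34 ± 0.20. The groups did not overlap for any of these genes, which adds nothing to the test, since the share of all 6336 genes without overlap was not counted. Of the 11 called genes 7 stayed called without the retina pool of samples 1 and 2 and 8 without that of samples 3 and 4. The comparison cells of the same libraries gave similar differences, with -3.50 for Hspa1a, -2.74 for Hsp90aa1 and a list median of -1.57 beside -1.22 over the 12 genes measured in both classes. Hspa1a was not low in every nerve library: it had 2651 CPM in class II positive cells of uninjured nerve library 2, against 0 and 102 CPM in those of the injured nerve libraries and 6759 and 6274 CPM in those of the injured retina pools.

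Immediate early genes, which cells switch on soon after stimulation, were lower in the nerve for 5 of 19 and higher for 0, with all 19 differences below 0. Comparison cells showed this too, with a list median of -0.89 beside -0.61, and differences of -1.72 for Egr1 and -2.21 for Jun. Egr1 averaged 0.13 and 0.35 in mean ln value in the nerve against 1.64 and 1.70 in the retina (difference -1.44 ± 0.22, adjusted p = 7.4e-05), and Jun (also the 1 called gene of the homeostatic list), Klf4, Klf6 and Klf2 differed by -1.59 ± 0.36, -0.92 ± 0.17, -0.90 ± 0.22 and -0.73 ± 0.19. Jun, Klf6 and Klf2 were not called without either retina pool. The CC chemokines Ccl3 and Ccl12 were lower too, Ccl3 by 1.55 ± 0.28 and Ccl12 by 0.97 ± 0.17, while Cxcl14 was higher by 0.84 ± 0.18 and Il1b by 0.93 ± 0.23, both not called without either retina pool. Of 29 ribosomal protein genes 3 were lower, Rpl13a (-1.97 ± 0.31), Rps15 (-1.53 ± 0.36) and Rps29 (-0.35 ± 0.09), of which Rpl13a alone stayed called without either pool. Atp6v0c, a proton pump subunit, Nme2, Adamts1 and Hspd1 complete the 12 lower genes of smallest p, and Atp6v0c and Nme2 were at or under 0.03 in both nerve libraries, in comparison cells up to 0.04.

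Of 22 disease-associated microglia genes 6 were higher and 0 lower in the nerve (median 0.58). Comparison cells of the same libraries differed at least as far, with a list median of 0.68 and with differences of 2.03 for Apoe, 2.56 for Lyz2 and 1.44 for Ctsd. Apoe, the main lipid carrier of glia and macrophages, averaged 5.94 and 6.89 in mean ln value in the nerve against 5.63 and 4.65 in the retina (difference 1.27 ± 0.16, adjusted p = 3.1e-06). Within each tissue the libraries lay further apart in Apoe than this moderated standard error. Ctsd, an aspartic protease of lysosomes, was higher by 1.28 ± 0.24, the galectin Lgals3 by 0.83 ± 0.16, Igf1 by 0.59 ± 0.12, the lipase Lpl by 0.58 ± 0.12 and Gpnmb by 0.52 ± 0.12. Lyz2, lysozyme of macrophages, averaged 2.27 and 4.43 in the nerve against 0.90 and 0.66 in the retina, higher by 2.57 ± 0.44 (adjusted p = 0.000504). Hexa and Cd68, of the lysosome, were higher by 1.02 ± 0.22 and 0.83 ± 0.21. In all of these nerve library 3 stood above library 1, most for Lyz2. Of the genes higher in the nerve, those still called without the retina pool of samples 1 and 2 were Apoe, Lyz2 and Ctsd, and without that of samples 3 and 4 Apoe and Lyz2. Lgals3 then had an adjusted p of 0.131 and 0.990 in limma, Igf1 of 0.212 and 0.673 and Lpl, which was also not called, of 0.392 without the first pool, and Lgals3 was not called by DESeq2 either (adjusted p = 0.283).

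Vim, Dhrs3, Tmsb4x and Ms4a7 were also among the 12 higher genes of smallest p, at 0.70 ± 0.12, 0.86 ± 0.16, 0.44 ± 0.08 and 0.42 ± 0.09, and none of them stayed called without either retina pool. The myelin gene Mbp was higher as well, by 1.46 ± 0.31, at 2.59 and 0.52 in nerve libraries 1 and 3 against 0.11 and 0.07 in the retina pools. Its difference was 0.43 without nerve library 1 and 2.50 without nerve library 3. It moved with the oligodendrocyte list given above, in comparison cells too, where Mbp differed by 1.61, and its part in the result was not tested.

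Of 8 class II genes tested 1 passed between the tissues. H2-Eb1 averaged 2.35 and 1.49 in the nerve against 2.13 and 2.89 in the retina, with a difference of -0.59 ± 0.38 that did not pass (adjusted p = 0.528 by limma) and overlapping libraries. H2-DMa differed by -0.06 ± 0.13, H2-DMb1 by 0.18 ± 0.12, H2-Oa by -0.07 ± 0.08, H2-Ob by 0.06 ± 0.06, Lgmn by -0.20 ± 0.36 and Rfxap by -0.06 ± 0.05. Ctss was the called member of the list, lower in the nerve by 0.46 ± 0.12 (adjusted p = 0.0473), at 3.64 and 4.14 against 4.28 and 4.43 in the retina, and it differed by -0.44 in comparison cells. Without nerve library 1 the difference of Ctss was -0.21 (limma, adjusted p = 0.169), and it was not called without either retina pool. None of the class I, costimulation, interferon gamma, type I interferon, complement and Fc receptor or proliferation genes was called.

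**Figure D5:**
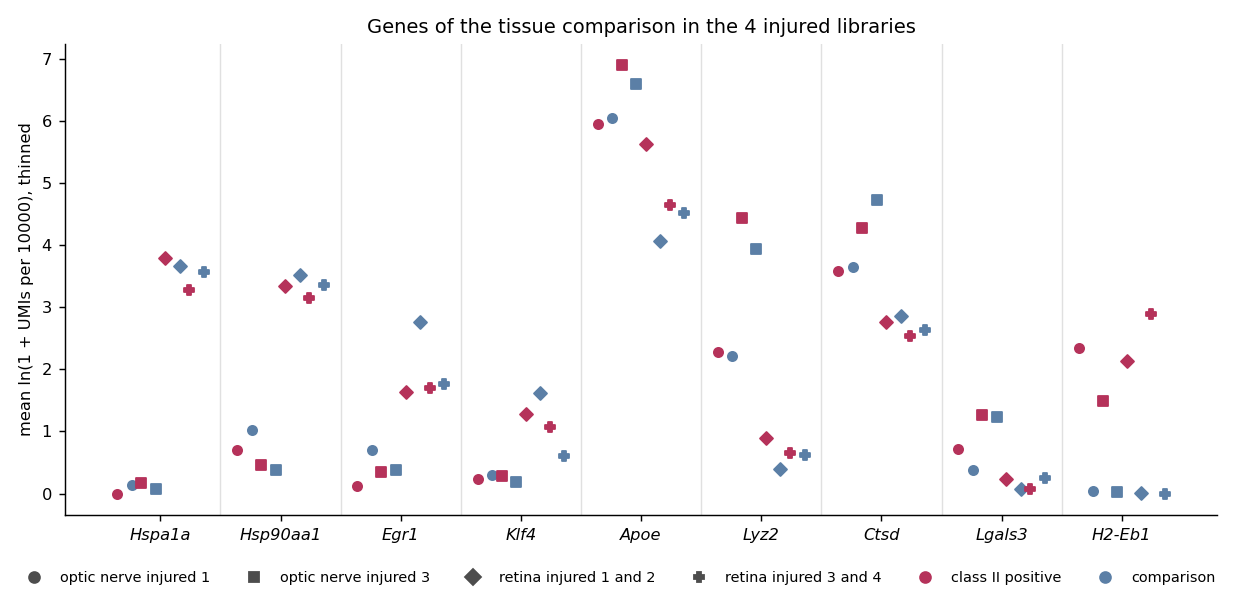
Mean ln values of 9 genes, on cells thinned to 1000 UMIs, in class II positive (red) and comparison cells (blue) of the 4 injured libraries, optic nerve left of retina. Hspa1a, Hsp90aa1, Egr1 and Klf4 lie lower and Apoe, Lyz2, Ctsd and Lgals3 higher in the nerve libraries in both classes, while H2-Eb1 follows the class.

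A test chosen after the data were seen asked whether the class difference depended on tissue, as the class II positive minus comparison difference in injured nerve minus that in injured retina. limma called 1 of 5831 genes (0.0171%), Apoe, at -0.75 ± 0.11 (adjusted p = 1.6e-07). Apoe averaged 5.63 in class II positive cells against 4.06 in comparison cells of the retina pool of samples 1 and 2, and 4.65 against 4.51 in the pool of samples 3 and 4. In nerve libraries 1 and 3 it averaged 5.94 and 6.89 in class II positive cells against 6.05 and 6.58 in comparison cells. Within each tissue the class difference thus varied between libraries by more than the moderated standard error of 0.11. The call rests on the first pool, since without it the difference was -0.04 (adjusted p = 0.938). It was also lost without nerve library 1 (-0.55) and when comparison cells with Mrc1, Cd3d or Cd3e were left out (-0.45, limma, adjusted p = 0.925). The latter kept 37 of 42 comparison cells in nerve library 1 and 248 of 255 in nerve library 3. It kept 16 of 16 in the retina pool of samples 1 and 2 and 7 of 8 in that of samples 3 and 4.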

How the data were processed

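Single cells were captured with the 10x Genomics v2 kit, and per the submitters' processing notes and the series' design text the reads were processed with bcl2fastq 2.17.1.14 and Cell Ranger 1.3 on mm10, cells with under 200 or over 6500 genes were removed, and Seurat 4.0.3 and harmony were used. The annotation is not given in the sources used here. For the retina the authors deposited raw UMI counts. For the optic nerve the authors deposited natural log (ln) values of 1 plus 10000 times the UMI count over the cell total, and each of the 1374534 values above 0 gave a whole count within 0.01 when undone. The 1168 cells held 7920570 UMIs. Of 31833 Ensembl identifiers 31394 matched a symbol in GENCODE M21.

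Each cell was thinned to 1000 UMIs (mean of 20 draws), which left out 14 class II positive and 196 comparison cells. Genes needed a UMI in both tissues and in 10% of cells on average over libraries. Means per library and class were tested with limma 3.58.1 (R 4.3.3), with edgeR 4.0.16 and DESeq2 1.42.0 on summed counts as alternatives, Benjamini-Hochberg adjusted over all genes tested, and the genes of the rule were left out. The 5 libraries tested held 12 and 42 (injured nerve 1), 5 and 36 (uninjured nerve 2), 72 and 255 (injured nerve 3), 57 and 16, and 23 and 8 (retina pools) cells of the 2 classes. Shares were tested by exact permutation. The class fit was tested on simulated data, where it called no unchanged gene and missed most changed ones, so that a list with 0 called genes says little. Named were the 12 higher and 12 lower called genes of smallest adjusted p (with a UMI in 10% of cells of the higher class; no unnamed models, haemoglobin, mitochondrial or Xist genes), every tested class II gene, and from each list up to 6 called and up to 4 other members by smallest p. Other genes named (B2m, Cd86 and the like) were picked for their role, and some genes that the rule names are not reported here. The rule, members and lists were chosen with earlier results of these data known.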

Additional observations from a re-analysis of the deposited data

Results flagged for a closer look

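Apoe was picked out because its class difference was not the same in the 2 injured tissues by a test of that difference: the class II positive minus comparison difference in injured optic nerve minus that in injured retina was -0.75 in mean ln value (limma, adjusted p = 1.6e-07). Groups of 2 libraries are too small for a check of single libraries against their group. In CPM Apoe stood at 31762 in class II positive cells against 9507 in comparison cells of the retina pool of samples 1 and 2, and at 15061 against 17088.5 in the pool of samples 3 and 4, so that the pools differ in direction on summed counts.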

How the results depend on the processing

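The class II positive against comparison test called 1 gene, H2-Eb1, as reported and the same number under 13 of the 18 alternatives. It called 6 genes with all UMIs of each cell, 12 by edgeR, 4 by DESeq2 and 0 with no filter on low genes (328 at an unadjusted p of 0.05), and from 1 to 3 when 1 library was left out, with 3 (H2-Eb1, Apoe and H2-DMa) without injured nerve library 3. Without the library as a replicate block it called 1 gene. The differences of H2-Eb1, H2-DMa, H2-DMb1, Apoe and Tnf kept their direction under each alternative. The tissue test called 332 genes with all UMIs, 172 by edgeR, 72 by DESeq2, and from 23 to 936 with 1 library left out (25 and 23 without the retina pools of samples 1 and 2 and of samples 3 and 4, 388 and 936 without nerve libraries 1 and 3), and the 24 named genes kept their direction throughout; 23 of their 191 alternative values no longer passed, all for genes higher in the nerve and 19 of them without a retina pool. DESeq2 and the block for that test, and all alternatives of the next one, were chosen after seeing the data. In leave-out fits the lone library of a tissue is assumed to vary like the others. With a replicate block of the nerve library and retina pool that share a sample number, the tissue test called 79 genes, 75 of them the same; the numbers are not stated to pair animals, and the deviations of the 2 pairs correlated at -0.06 over genes. The tissue dependence of the class difference called 1 gene with all UMIs, 0 without Mrc1, Cd3d or Cd3e comparison cells, and from 0 to 43 with 1 library left out, the 43 without the retina pool of samples 1 and 2 and not holding Apoe. The share difference was 16.0 points with thinning (exact permutation p = 0.278), 22.8 of all cells (p = 0.0556), 27.2 with 2 UMIs of each gene (p = 0.222), and from 28.8 to 35.2 with 1 library left out. Depth, 2 libraries a group and 12 cells from uninjured tissue limit all of these.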
